A study of Mus musculus with 28 samples.

Results

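The 8 myofibroblast marker genes Acta2, Tagln, Cnn1, Postn, Cthrc1, Lrrc15, Adam12 and Fap were followed in mouse skin while wounds closed. They were taken by symbol from a table of raw counts of 29068 genes, and all 8 were among the 18107 genes with enough counts to be tested. The tissue was the wound with its crust and the epidermis at its edge, taken from 8-week-old C57BL/6J mice of both sexes, called MLKL+/+ in the study, after a 6-mm punch wound of the back down to the fascia. All groups shared genotype and treatment, natural wound healing with no agent given, and differed in the day, with 4 libraries each on days 0, 3, 5, 7, 10, 12 and 14. The groups are called Day0 to Day14. Day0 was the control in the labels, whereas the study's methods place its earliest samples on day 1. The tissue description above is that of the study's wound samples. Whether the Day0 skin had been wounded, and how deep it was cut, is not stated in the study's methods. The text beside the labels speaks of 5 repeats, and 4 libraries a day were analysed here. The study's question was how gene expression at the wound site changes during healing.

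Myofibroblasts are fibroblasts that acquire contractile filaments and deposit matrix while a wound closes. Acta2 (smooth muscle alpha actin), Tagln (transgelin) and Cnn1 (calponin 1) belong to the contractile apparatus, and smooth muscle of vessels and hair follicles makes them as well. Postn (periostin) and Cthrc1 are secreted, Lrrc15 and Fap (fibroblast activation protein, a serine protease) sit on the cell surface, and Adam12 is a metalloprotease of the cell membrane, and these genes are known from activated fibroblasts of wounds, fibrosis and tumours. The samples were bulk tissue, so fewer cells of a type and less RNA per cell cannot be told apart.

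The data hold between 36706513 and 40655764 counts a library. The Day0 libraries differed more among themselves than those of the other days, with a biological coefficient of variation of 26.5% against 5.77 to 10.8%. Within Day0, replicates 1 and 4 stood apart from replicates 2 and 3. Summed over 8 skeletal muscle genes, replicates 1 and 4 had 15824 and 16651 FPKM (a read count per unit of gene length and of library total, the per-length level used below) and replicates 2 and 3 had 10162 and 10462. Each comparison with Day0 used these 4 libraries, so the 6 comparisons are not independent of each other. Nothing states that the libraries came from separate animals, so p-values measure only the spread between these libraries. Differences below are log2 fold changes with their standard errors (SE) from edgeR's quasi-likelihood test on counts, and adjusted p is that of edgeR after Benjamini-Hochberg correction over all genes tested. A gene was called changed at an adjusted p under 0.05.

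**Figure D1:**
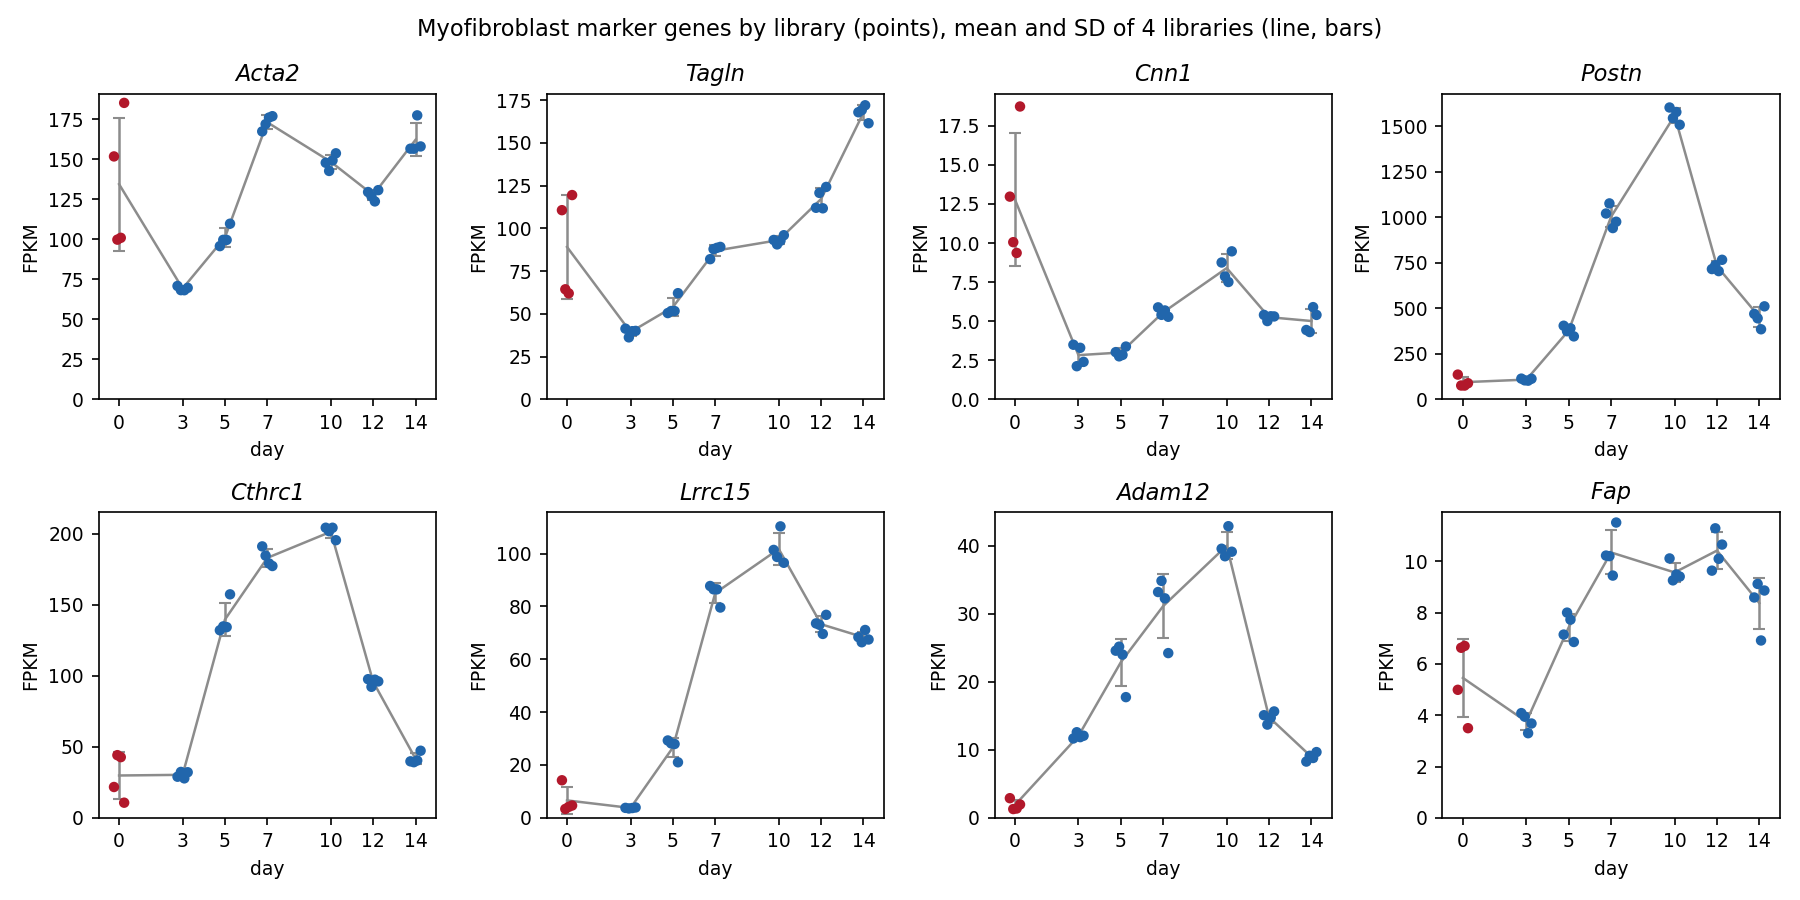
Level (FPKM) of each member by day, with 1 point per library (Day0 red, wound days blue) and a line with bars for the mean and SD of 4 libraries. The y axes start at 0 and differ between genes. Acta2, Tagln and Cnn1 had their lowest mean on Day3, and Postn, Cthrc1, Lrrc15 and Adam12 their highest on Day10.

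The contractile gene Acta2 lies on the minus strand at chr19:34241090-34255590 (GRCm38, annotation GENCODE M21). Its transcription is known to depend on serum response factor, which binds CArG boxes, in smooth muscle and in myofibroblasts. The window of 250 bases before the Acta2 start in RefSeq (GRCm38.p6) held no CArG box in the strict form, which is CC, then 6 bases that are each A or T, then GG, and reads alike on both strands. Of 32851 such windows, 1.47% held that form. A form with 1 G or C among the inner 6 bases was searched after the strict form had given no match, and 8.59% of windows held it or the strict form. Away from the outer 10 bases at each end, the Acta2 window held it at 2 places, and 0.67% of windows held it at 2 or more places anywhere. These 2 places are shown with 10 bases on each side and the match in capitals. They are the letters behind the best known control of this gene. Both stretches lie on the minus strand inside the first exon as GENCODE draws it, which starts upstream of the RefSeq start.
Acta2, 84 bases before the RefSeq start, chr19:34255438-34255467: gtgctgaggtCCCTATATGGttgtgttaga
Acta2, 34 bases before the RefSeq start, chr19:34255388-34255417: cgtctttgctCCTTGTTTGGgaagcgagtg
The same window held 1 MCAT motif (CATTCC on either strand, found in 12.6% of windows), at position -146. Windows were matched by symbol for 4 members. Those of Cnn1, Lrrc15 and Postn, which has 2 RefSeq starts, held no match to the strict form or to MCAT. They also held none to the looser form away from the outer 10 bases at each end. This says only that the letters are not in those bases. Promoter windows of Tagln, Cthrc1, Adam12 and Fap were not analysed here.

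Acta2 fell early and came back. Its 4 Day0 libraries had 152, 99.8, 101 and 185 FPKM, and its Day3 libraries had 70.8, 68.2, 68.2 and 69.6 FPKM. Every Day3 library was below every Day0 library, with a mean of 69.2 ± 1.27 against 134 ± 41.6 FPKM (SD, n = 4 each). The difference on Day3 was -0.90 (SE 0.12, edgeR adjusted p = 2.1e-07). On Day5 the libraries had 95.7, 99.6, 99.6 and 110 FPKM, overlapping those of Day0, and on Day7 they had 167, 172, 176 and 177 FPKM, the highest mean of all days at 173 ± 4.36 FPKM (SD, n = 4). The Day7 level exceeded that of Day0 by 0.36 (SE 0.12, edgeR adjusted p = 0.013), but lay between the highest and the lowest Day0 library. That call rested on Day0 replicates 2 and 3. Without replicate 2 or 3 the difference was 0.24 or 0.25 with edgeR adjusted p = 0.069 in each case, and fitted on the 8 libraries alone it had an adjusted p of 0.17. The exact two-sided permutation test on log2 CPM, 4 libraries against 4, whose smallest possible p is 0.0286, gave p = 0.14 for Day7 and p = 0.37 for Day5. The Day5 call (-0.37, SE 0.12, edgeR adjusted p = 0.0093) was lost without Day0 replicate 4, with -0.17 and an adjusted p of 0.14, and on the 8 libraries alone, with an adjusted p of 0.11.

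The steps between neighbouring wound days compare no Day0 library, although the dispersion shared over all days includes them. Acta2 rose by 0.53 from Day3 to Day5 and by 0.73 from Day5 to Day7 (edgeR adjusted p = 0.0015 and 2.8e-05). All 4 libraries of the later day were above all 4 of the earlier one at both steps. The levels were then 148 ± 4.54 FPKM on Day10, 128 ± 3.13 on Day12 and 162 ± 10.2 on Day14 (SD, n = 4 each). The change from Day7 to Day10 was -0.27 with all 4 Day10 libraries below all of Day7, and its edgeR adjusted p was 0.082 in the fit of all libraries and 9.3e-05 on the 8 libraries alone. Acta2 fell by 0.31 from Day10 to Day12 (edgeR adjusted p = 0.042), a call that leaving out any 1 of the 8 libraries ended, with adjusted p between 0.0505 and 0.10. It rose by 0.36 from Day12 to Day14 (edgeR adjusted p = 0.014), and without Day14 replicate 3, the highest of that day with 177 FPKM, the adjusted p was 0.061. Against Day0 the differences of 0.09 on Day10, -0.22 on Day12 and 0.15 on Day14 were not called, and each was called when 1 Day0 library was left out. These were replicate 4 on Day10 (0.28, edgeR adjusted p = 0.015), replicate 2 or 3 on Day12 (-0.33 each, adjusted p = 0.015 and 0.016) and replicate 1 or 4 on Day14 (0.29 and 0.41, adjusted p = 0.044 and 0.00043). The Day14 difference was also called by limma on log2(FPKM + 1), with 0.32 and adjusted p = 0.021. Ordered by mean level, the days ran Day7, Day14, Day10, Day0, Day12, Day5 and Day3. The libraries of Day7 and Day14 overlapped, and Day0 overlapped both of its neighbours. Reads could be shared between Acta2 and its close relatives, among them Acta1 of skeletal muscle (792 to 5182 FPKM over the 28 libraries), since how shared reads were counted is not given in the sources used here.

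Tagln, an actin-binding protein of smooth muscle on the minus strand at chr9:45929619-45936058, began like Acta2 and ended higher. The Day0 libraries had 111, 64.3, 62.0 and 119 FPKM, and those of Day3 had 41.3, 36.2, 39.8 and 40.0 FPKM, all 4 below all of Day0. The Day3 difference was -1.12 (SE 0.14, edgeR adjusted p = 3.6e-08) and the Day5 difference -0.68 (SE 0.13, edgeR adjusted p = 7.9e-05), where 3 of 4 libraries were below all of Day0. Levels on Day7, Day10 and Day12 were 86.9 ± 3.32, 93.1 ± 2.21 and 117 ± 6.29 FPKM (SD, n = 4 each), within the range of Day0 except for 2 Day12 libraries at 121 and 124 FPKM. The differences on these days, -0.04, 0.01 and 0.25, were not called, and that of Day12 was called without Day0 replicate 1 (0.39, edgeR adjusted p = 0.016) or replicate 4 (0.44, adjusted p = 0.0042), and by limma on log2(FPKM + 1) (0.45, adjusted p = 0.0067). The calls depended on the Day0 libraries kept, in pairs left out after seeing the data. Without replicates 1 and 4 Tagln was called higher on Day7 and Day10, with 0.46 and 0.51 (edgeR adjusted p = 3.2e-06 and 5.7e-07) and on Day12 with 0.75 (edgeR adjusted p = 3.7e-10). Without replicates 2 and 3 it was called lower on Day7 and Day10, with -0.41 and -0.36 (edgeR adjusted p = 2.5e-05 and 0.00016). On Day14 the libraries reached 168, 169, 172 and 161 FPKM, all above every Day0 library. This was the day of the highest mean, and the difference from Day0 was 0.78 (SE 0.13, edgeR adjusted p = 1.1e-05). Between neighbouring wound days Tagln rose by 0.44 to Day5, 0.64 to Day7 and 0.53 to Day14 (edgeR adjusted p = 0.017, 0.00051 and 0.0018). The first of these calls was lost without Day3 replicate 2 (0.36, adjusted p = 0.081), Day3 replicate 3 (0.41, adjusted p = 0.0504) or Day5 replicate 4 (0.36, adjusted p = 0.065). The exons of Tagln share 1241 bases with the antisense gene Gm48529 and 108 bases with Pcsk7 on the opposite strand, and whether counting used strand is not given in the sources used here.

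Cnn1, which restrains myosin in differentiated smooth muscle and lies on the plus strand at chr9:22099216-22109630, stayed below its Day0 level. Its Day0 libraries had 13.0, 10.1, 9.37 and 18.7 FPKM, and those of Day3 had 3.49, 2.12, 3.30 and 2.40 FPKM. The difference was -2.12 on Day3, -2.05 on Day5, -1.20 on Day7, -0.66 on Day10, -1.42 on Day12 and -1.47 on Day14 (SE 0.16 to 0.17). All 6 differences were called, with edgeR adjusted p between 1.5e-11 and 0.0012. On the normalised scale of the test, log2 CPM, all 4 libraries of each wound day were below all of Day0. In FPKM 1 Day10 library, at 9.47, passed the lowest Day0 library at 9.37. Cnn1 rose by 0.85 from Day5 to Day7 and by 0.54 from Day7 to Day10 (edgeR adjusted p = 0.00033 and 0.012), then fell by 0.76 to Day12 (edgeR adjusted p = 0.00046). Its mean on Day10 was 8.40 ± 0.887 FPKM (SD, n = 4), the highest of the wound days. Without Day0 replicates 1 and 4, an alternative added after seeing the data, the Day10 difference was -0.26 with edgeR adjusted p = 0.11.

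**Figure D2:**
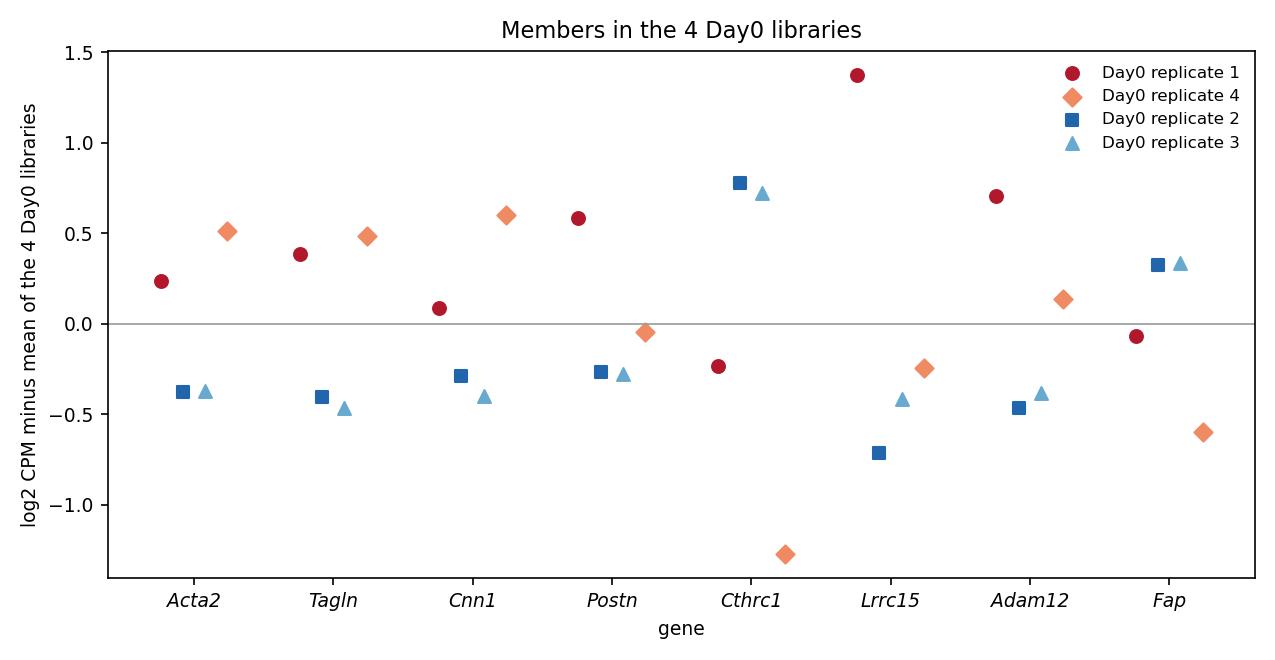
Log2 CPM of each member in the 4 Day0 libraries minus the mean of the 4, with 1 marker per library. Replicates 1 and 4 lay above replicates 2 and 3 for Acta2, Tagln and Cnn1 and below them for Cthrc1 and Fap, and replicate 1 was highest for Postn, Lrrc15 and Adam12.

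The split within Day0 reached the members in opposite directions. Replicates 1 and 4 had a summed contractile level of 275 and 323 FPKM against 174 and 172 in replicates 2 and 3. For Cthrc1 the order was reversed, with 21.7 and 10.7 FPKM in replicates 1 and 4 against 44.1 and 42.7 FPKM in replicates 2 and 3. Marker lists of other cells moved along. In the order of replicates 1 to 4, the sum over 8 smooth muscle genes was 581, 328, 323 and 644 FPKM, that over 8 genes of resting skin fibroblasts was 1993, 4830, 4723 and 1468 FPKM, and that over 6 keratinocyte genes was 2844, 1459, 1536 and 3095 FPKM. The part of these cells in the members' Day0 levels was not tested.

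Postn rose most in absolute level. Periostin is a matricellular protein that binds collagen and integrins, and its gene lies on the plus strand at chr3:54361109-54391037. The Day0 libraries had 136, 76.0, 75.7 and 88.6 FPKM, and those of Day3, at 114, 104, 103 and 113 FPKM, lay inside that range. The Day3 difference was 0.26 (SE 0.12, edgeR adjusted p = 0.053). It passed the threshold with DESeq2 (adjusted p = 0.029), with DESeq2's size factors in edgeR (0.040), and without Day0 replicate 1 (0.55, adjusted p = 3.4e-07), Day3 replicate 2 (0.33, adjusted p = 0.028) or Day3 replicate 3 (0.34, adjusted p = 0.026). From Day5 on the groups no longer overlapped with Day0, at 405, 374, 391 and 346 FPKM on Day5 and 1021, 1077, 941 and 976 FPKM on Day7. On Day10 the libraries had 1604, 1546, 1579 and 1509 FPKM, a mean of 1560 ± 41.2 (SD, n = 4). This placed Postn at rank 22 among all genes by mean FPKM, from rank 655 on Day0. The difference from Day0 was 2.05 on Day5, 3.41 on Day7, 4.00 on Day10, which is 15.95-fold, 2.81 on Day12 and 2.14 on Day14 (SE 0.12 to 0.13, edgeR adjusted p between 8.5e-19 and 4.5e-14). The steps were 1.79 to Day5, 1.36 to Day7 and 0.58 to Day10, followed by a fall of 1.18 to Day12 and 0.68 to Day14. Each step was called, with edgeR adjusted p between 1.2e-11 and 0.00032, and at each one all 4 libraries lay beyond all 4 of the day before.

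Cthrc1, a secreted collagen triple helix repeat protein at chr15:39076932-39087121 on the plus strand, was called higher on 4 of the 6 days. Its Day3 libraries had 28.9, 32.3, 27.8 and 32.1 FPKM, between the lowest and the highest Day0 library. On Day5 they had 132, 135, 134 and 157 FPKM, at least 132 against at most 44.1 FPKM on Day0. The Day5 difference was 2.27 (SE 0.23, edgeR adjusted p = 1.4e-09). The level was then 183 ± 6.21 FPKM on Day7 and 201 ± 4.14 on Day10 (SD, n = 4 each), and neither step was called in the fit of all libraries (edgeR adjusted p = 0.25 and 0.80). All 4 Day7 libraries were above all of Day5, and on the 8 libraries alone that step was called, with 0.36 and edgeR adjusted p = 0.0011. It fell by 1.16 to Day12 and by 1.19 to Day14 (edgeR adjusted p = 8.9e-05 and 7.8e-05). The Day14 libraries, at 39.8, 39.2, 40.4 and 47.2 FPKM, again overlapped those of Day0, with a difference of 0.35 (SE 0.22, edgeR adjusted p = 0.16). The sign of the Day3 and Day14 differences depended on which Day0 libraries were kept. On Day3 it was 0.08 with all, -0.15 without replicate 4 (adjusted p = 0.32), -0.46 without replicates 1 and 4 (adjusted p = 4.2e-06) and 1.00 without replicates 2 and 3 (adjusted p = 8.3e-07). On Day14 it was -0.18 and 1.30 without those pairs, and 0.65 and 0.62 without replicate 2 or replicate 3 alone (edgeR adjusted p = 0.011 and 0.018). By limma on log2(FPKM + 1) the Day14 difference was 0.66 (adjusted p = 0.018).

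Lrrc15, a leucine-rich repeat membrane protein at chr16:30269302-30283256 on the minus strand, rose steeply and was still high on Day14. The Day0 libraries had 14.2, 3.36, 4.15 and 4.66 FPKM, replicate 1 being far above the others, and those of Day3 had 3.77, 3.54, 3.70 and 3.93 FPKM. The Day3 difference of -0.77 (SE 0.25, edgeR adjusted p = 0.0097) rested on that library. Without Day0 replicate 1 it was -0.0080 (edgeR adjusted p = 0.95), and on the 8 libraries alone the adjusted p was 0.13. Levels then rose to 29.3, 28.2, 27.9 and 21.02 FPKM on Day5 and to 87.7, 86.5, 86.5 and 79.6 FPKM on Day7. The steps from Day3 to Day5 and from Day5 to Day7 were 2.82 and 1.63 (edgeR adjusted p = 6.0e-09 and 9.4e-06). The mean was highest on Day10, at 102 ± 6.05 FPKM, and was still 68.4 ± 1.99 FPKM on Day14 (SD, n = 4 each). The difference from Day0 was 3.89 on Day10, 3.33 on Day12 and 3.24 on Day14 (SE 0.27, edgeR adjusted p between 3.5e-12 and 8.1e-11). Without Day0 replicate 1 these were 4.603, 4.05 and 4.03, and those of Day5 and Day7 were 2.77 and 4.39 rather than 2.05 and 3.68. None of the steps after Day7 was called in the fit of all libraries. The fall of 0.56 from Day10 to Day12, with edgeR adjusted p = 0.066, had one of 1.3e-09 on the 8 libraries alone.

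Adam12, which cleaves proteins at the cell surface and lies on the minus strand at chr7:133883199-134232146, was the only member called higher on Day3. Its Day0 libraries had 2.89, 1.29, 1.37 and 1.96 FPKM, and its Day3 libraries 11.7, 12.6, 11.9 and 12.1 FPKM. The groups did not overlap, and the difference was 2.74 (SE 0.17, edgeR adjusted p = 4.2e-14). It reached 33.2, 34.9, 32.3 and 24.2 FPKM on Day7 and 39.6, 38.5, 42.9 and 39.1 FPKM on Day10. The Day10 difference of 4.36, or 20.5-fold, was the largest of any member on any day (SE 0.18, edgeR adjusted p = 6.3e-17). Adam12 rose by 0.91 from Day3 to Day5 (edgeR adjusted p = 6.0e-05) and fell by 1.53 from Day10 to Day12 and 0.71 from Day12 to Day14 (edgeR adjusted p = 6.9e-09 and 0.00050). The rise of 0.40 from Day5 to Day7 had edgeR adjusted p = 0.047 and overlapping libraries. It lost its call when any 1 of these libraries but Day7 replicate 4 was left out (adjusted p between 0.0504 and 0.16) and with DESeq2's size factors (0.054). On Day14 the libraries had 8.27, 9.13, 8.80 and 9.67 FPKM, still above every Day0 library and below every Day3 library.

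Fap, a serine protease of the fibroblast surface at chr2:62500943-62574075 on the minus strand, had the smallest difference from Day0 of the surface and secreted members from Day5 to Day12. The Day0 libraries had 4.99, 6.63, 6.70 and 3.50 FPKM and the Day3 libraries 4.08, 3.95, 3.30 and 3.68 FPKM. These overlapped, and the Day3 difference was -0.49 (SE 0.13, edgeR adjusted p = 0.0014). Without Day0 replicates 2 and 3 it was -0.080 with an adjusted p of 0.57. Levels rose to 7.15, 8.002, 7.73 and 6.86 FPKM on Day5, all above Day0, and were 10.3 ± 0.858, 9.57 ± 0.376 and 10.4 ± 0.713 FPKM on Day7, Day10 and Day12 (SD, n = 4 each). The differences from Day0 were 0.49, 0.92, 0.75, 0.79 and 0.49 from Day5 to Day14 (SE 0.12, edgeR adjusted p between 4.8e-07 and 0.0014). The Day5 call was lost on the 8 libraries alone (0.46, edgeR adjusted p = 0.072) and without Day0 replicates 1 and 4 (0.20, adjusted p = 0.055). On Day14 3 of 4 libraries were above all of Day0, and the exact permutation p was 0.086. Between neighbouring days it rose by 0.97 to Day5 and by 0.43 to Day7 (edgeR adjusted p = 1.4e-06 and 0.0077). The fall of 0.30 from Day12 to Day14 (edgeR adjusted p = 0.045) was lost with DESeq2, its size factors and other count filters (adjusted p between 0.066 and 0.096) and when any 1 of the 8 libraries but Day14 replicate 2 was left out (adjusted p between 0.056 and 0.15).

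**Figure D3:**
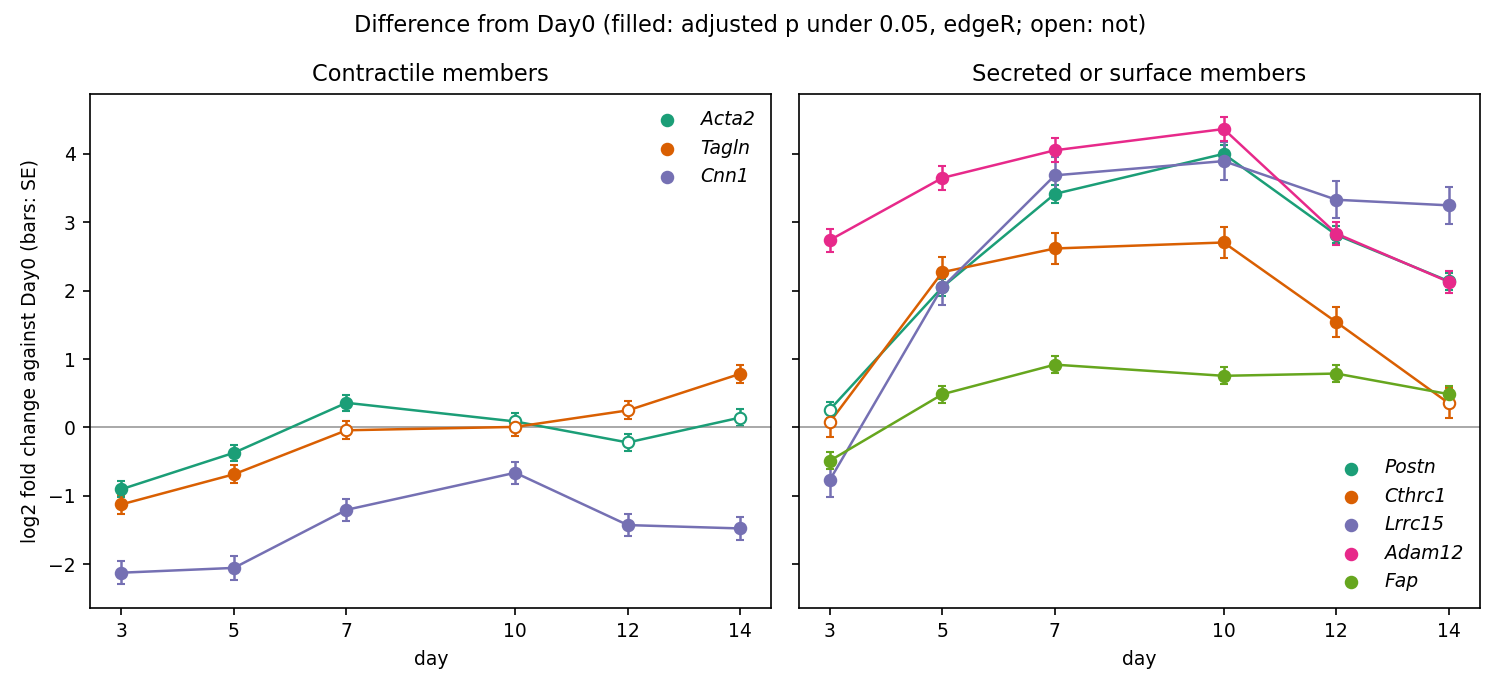
Log2 fold change of each member against Day0 by day, with SE as bars. Filled points passed an adjusted p under 0.05 in edgeR and open points did not. Cnn1 lay below 0 on all 6 days, while Postn, Lrrc15, Adam12 and Fap lay above 0 from Day5 on.

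Counted against Day0, the members called changed from mostly lower to mostly higher. On Day3 1 member was called higher, where 31.8% of all genes tested were, and 5 lower, where 34.8% were. On Day5 5 members were higher and 3 lower (29% and 30.6% of all genes). Day7 had 6 higher and 1 lower (25.6% and 24.8%), Day10 5 and 1 (23.5% and 26.9%), Day12 5 and 1 (21.7% and 25.6%) and Day14 5 and 1 (28.2% and 34.5%). The 5 genes called higher on Day10 and Day12 were the secreted and surface members, and on Day14 Tagln took the place of Cthrc1 among the 5. Without Day0 replicates 1 and 4, Acta2 and Tagln joined them, giving 7 members higher on Day10 and 7 on Day12, when 24.6% and 22.8% of all genes were in that fit (edgeR adjusted p between 3.7e-10 and 0.0082 for Acta2 and Tagln). With all libraries, the only member called lower on Day7 and after was Cnn1, and without Day0 replicates 2 and 3 there were 2 on Day7 and 3 on Day10, when 24.6% and 24.9% of all genes were lower in that fit. The study's own criteria were a log2 fold change over 1.5 and an unadjusted p under 0.05. The study used them on DESeq2 results, and here they were used on the edgeR fit. By these criteria 1 member was higher and 1 lower on Day3 (6.5% and 12.4% of all genes) and 4 were higher and 1 lower on Day5 (5.61% and 8.31%). By the same criteria 4 were higher and 0 lower on Day7 (4.66% and 4.74%), Day10 (4.33% and 5.14%) and Day12 (3.89% and 3.51%), and 3 higher and 0 lower on Day14 (5.15% and 8.83%).

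Between neighbouring wound days the counts turned after Day10. From Day3 to Day5 7 members rose and none fell, against 12.9% and 11.4% of all genes, and from Day5 to Day7 7 rose and none fell, against 13.9% and 14.6%. The members that did not pass were Cnn1 at the first step, with 0.07, and Cthrc1 at the second, with 0.35. From Day7 to Day10 Cnn1 and Postn rose and no member fell (14.3% and 18% of all genes). From Day10 to Day12 no member rose and 5 fell, Acta2, Cnn1, Postn, Cthrc1 and Adam12 (18.7% and 20.7%). From Day12 to Day14 2 rose, Acta2 and Tagln, and 4 fell, Postn, Cthrc1, Adam12 and Fap (19.9% and 25.3%). The 8 libraries of Day7 and Day10 alone gave 4 members higher and 1 lower, against 21.1% and 22.2% of all genes in that fit, the added ones being Lrrc15 and Adam12 and, lower, Acta2. Those of Day5 and Day7 alone gave all 8 higher, against 15.7% of all genes higher and 15.1% lower. In a joint test over the 6 wound days all 8 members differed between days, as did 85.1% of all genes tested.

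**Figure D4:**
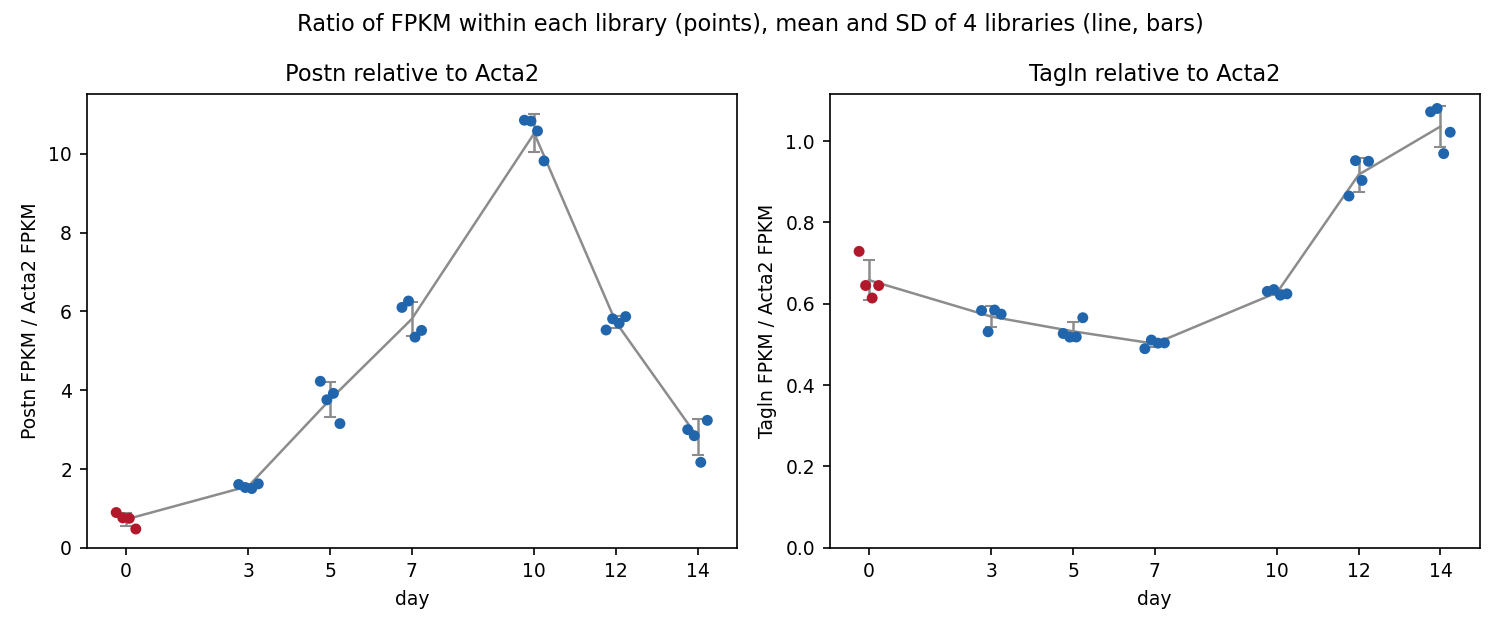
Ratio of FPKM of Postn to Acta2 (left) and of Tagln to Acta2 (right) by day, with 1 point per library (Day0 red, wound days blue) and the mean and SD of 4 libraries. Postn to Acta2 peaked on Day10 at 10.5, and Tagln to Acta2 was lowest on Day7 and highest on Day14.

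Within a library, the members changed their proportions to each other. The Postn to Acta2 ratio of FPKM was 0.721 ± 0.175 on Day0, 1.57 ± 0.0577 on Day3, 5.81 ± 0.443 on Day7, 10.5 ± 0.484 on Day10 and 2.81 ± 0.457 on Day14 (SD, n = 4 each). Tagln to Acta2 was 0.658 ± 0.0493 on Day0, where the 4 libraries ranged from 0.614 to 0.729, 0.502 ± 0.00889 on Day7 and 1.04 ± 0.0513 on Day14 (SD, n = 4 each). All 4 Day14 ratios were at least 0.969, and the highest Day7 ratio was 0.511. Cnn1 to Acta2 was 0.0951 ± 0.00747 on Day0 and between 0.0296 and 0.0566 on the wound days. Adam12 to Fap rose from 0.385 ± 0.214 on Day0 to 4.19 ± 0.250 on Day10 and was 1.08 ± 0.138 on Day14 (SD, n = 4 each).

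Deviations of single libraries from their day's mean were compared for 10 pairs of genes fixed for these tests, with 100000 permutations within days. Because the Day0 libraries fell into separate pairs, the 24 libraries of the wound days are given first. In them Acta2 deviated with Tagln, with Pearson r = 0.77 and Spearman rho = 0.78 (permutation p = 0.00015 and 0.00011, adjusted p = 0.0015 and 0.0011). Without Day5 replicate 4 and Day14 replicate 3, the farthest libraries, r was 0.68. Acta2 and Acta1 had r = 0.60 and rho = 0.57 (adjusted permutation p = 0.027 and 0.037), with r = 0.42 without those libraries, and could share reads. The other 8 pairs, which set Acta2 beside each of the other 6 members and Myh11, and Postn beside Col1a1, had adjusted permutation p of at least 0.075. Over all 28 libraries Acta2 and Tagln had r = 0.95, Acta2 and Cnn1 0.75, Acta2 and Fap -0.87 and Acta2 and Acta1 0.81 (adjusted permutation p = 0.00020, 0.0057, 0.014 and 0.0046). Of these, the relations with Cnn1 and Fap were called only with the Day0 libraries included, with r = 0.48 and -0.49 over the wound days.

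By Pearson's r of log2 CPM over all 28 libraries, the genes most like each member were looked up among 12946 genes with a mean of at least 1 FPKM. These values describe shared time courses, since libraries of 1 day share their day. Acta2 was most like Ces1d (r = 0.90), Csrp1 and Nnat, and Tagln most like Wnk4 (r = 0.97), Csrp1 and Hoxc13. Cnn1 was most like Mtmr11 (r = 0.94), Ky and Mylk, the kinase of the myosin light chain. For the others the first genes were Cdh11, Prss35 and F2r for Postn (r = 0.98 with Cdh11, a cadherin of mesenchymal cells), Col5a1, Sfrp2 and Osr1 for Cthrc1 (r = 0.98 with Col5a1) and Flg, Prss35 and Atp6v0d2 for Lrrc15 (r = 0.96 with Flg, filaggrin of the cornified epidermis). Adam12 was most like Ccn4 (r = 0.99), Lipa and Col12a1, and Fap most like Col6a6 (r = 0.94), Zfp260 and Col14a1.

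Other genes of the myofibroblast programme were counted from lists. Among 13 matrix genes, 11 were called higher and 0 lower on Day10 by edgeR, against 23.5% and 26.9% of all genes tested, with a median difference of 1.64 against -0.02. On Day14 4 were higher and 6 lower (28.2% and 34.5% of all genes), with a median of 0.06. The Day0 sum of this list was 6037, 13167, 12821 and 3458 FPKM in replicates 1 to 4, higher in replicates 2 and 3 as for Cthrc1, and its part in these counts was not tested. The fibril-associated collagen Col12a1 and the matricellular Tnc differed by 4.28 and 3.89 from Day0 on Day7 (SE 0.20 and 0.43, edgeR adjusted p = 8.0e-16 and 1.5e-08), beside 3.41 for Postn, 3.68 for Lrrc15 and 4.05 for Adam12 on that day. Sparc and Col1a2, at 2838 and 2154 FPKM on Day0, had 0.03 and 0.28 on Day7 (edgeR adjusted p = 0.92 and 0.34). Of 10 partners in contraction and adhesion, 6 were higher and 4 lower on Day7, when 25.6% and 24.8% of all genes were. Cald1 and Actn1, of non-muscle actin filaments as well, were higher by 0.90 and 0.60 (edgeR adjusted p = 1.5e-13 and 2.6e-05), and the tropomyosins Tpm1 and Tpm2, abundant in skeletal muscle, lower with -1.46 and -2.11 (edgeR adjusted p = 5.6e-12 and 1.0e-13).

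Among 11 inducing ligands, receptors and integrins 8 were higher and 1 lower on Day7 (25.6% and 24.8% of all genes), and 1 higher and 8 lower on Day14 (28.2% and 34.5% of all genes). The collagen-binding integrin Itga11 and the receptor Pdgfra were higher by 1.26 and 0.86 on Day7 (edgeR adjusted p = 2.7e-08 and 2.9e-06), Ccn2, a target of TGF-beta signalling, was lower with -0.81 (edgeR adjusted p = 0.0055), and Tgfb2 had -0.07 (edgeR adjusted p = 0.68). Of 12 transcription factors and cofactors 2 were higher and 5 lower on Day7, against the same shares of all genes, Runx1 with 1.11 and Prrx1 with 0.30 being higher (edgeR adjusted p = 1.2e-12 and 0.034). Myocd, the cofactor of serum response factor in smooth and heart muscle, had -1.95 and the tendon factor Scx -1.44 (edgeR adjusted p = 1.2e-05 and 1.5e-06), at mean levels of 0.212 and 1.01 FPKM on Day7.

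**Figure D5:**
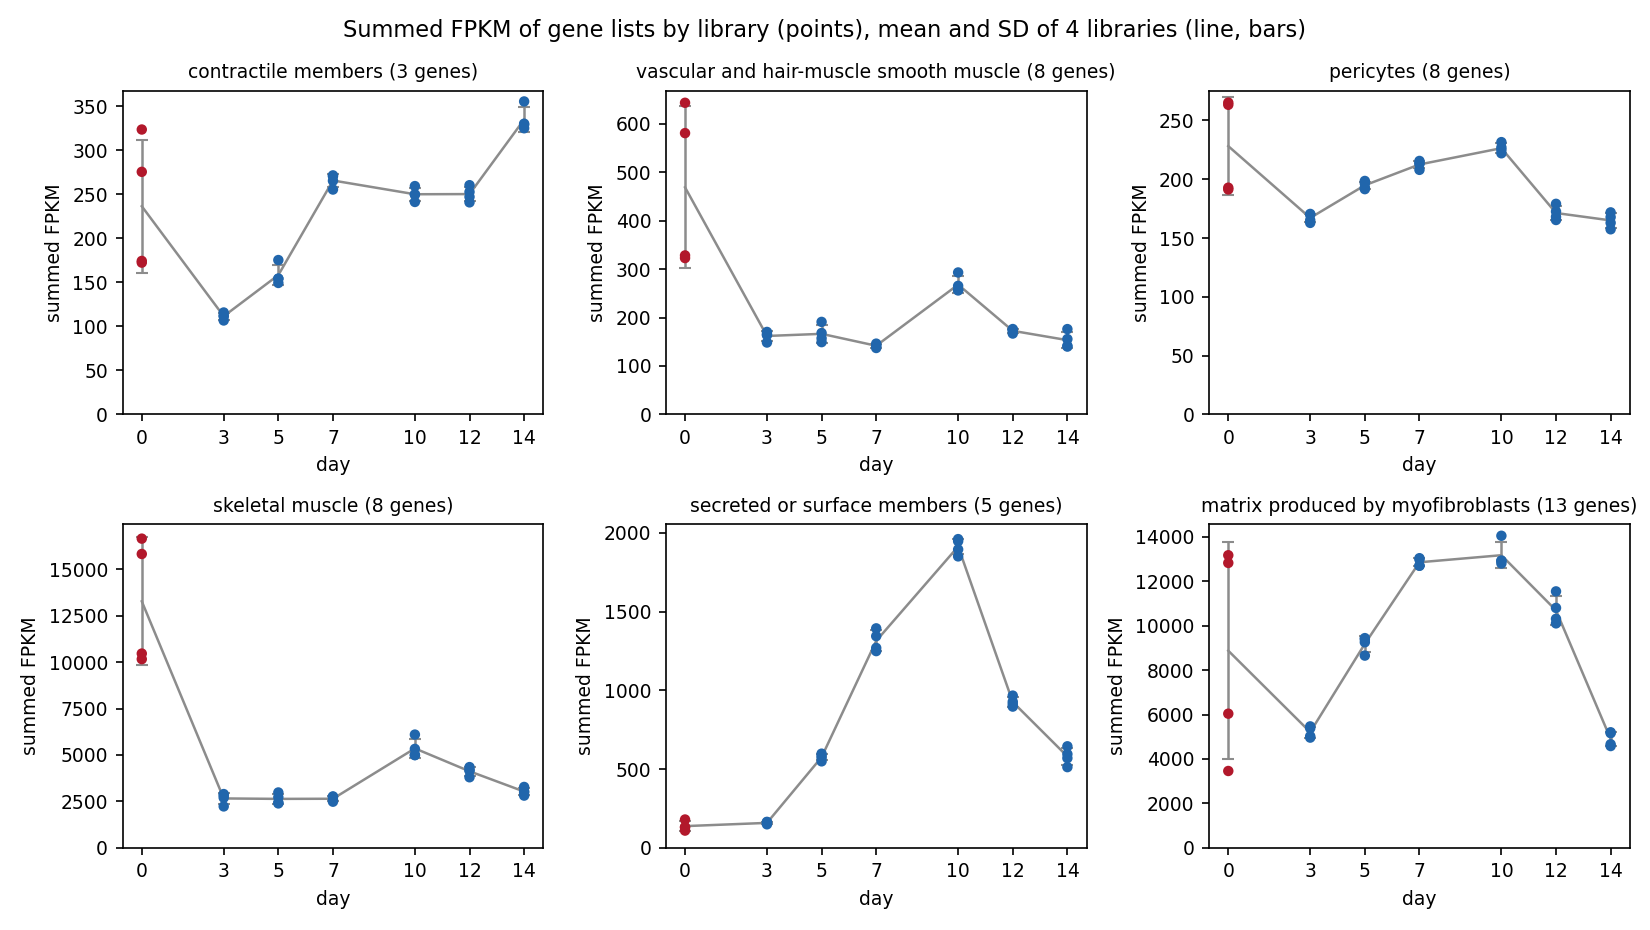
Summed FPKM of gene lists by day, with 1 point per library (Day0 red, wound days blue) and the mean and SD of 4 libraries. The smooth muscle and skeletal muscle sums were highest on Day0, the contractile sum was highest on Day14, and the sum of the secreted and surface members was highest on Day10.

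Cells other than myofibroblasts also make the contractile members, so marker lists of these cells are given beside them. Of 8 smooth muscle genes, 8 were lower on Day3, 8 on Day5 and 7 on Day7 by edgeR, when 34.8%, 30.6% and 24.8% of all genes were. Their sum was 323 to 644 FPKM on Day0, 148 to 170 on Day3, 137 to 146 on Day7, 256 to 293 on Day10 and 140 to 176 on Day14. The contractile members summed to 172 to 323 FPKM on Day0, 107 to 116 on Day3, 255 to 271 on Day7, 241 to 259 on Day10 and 325 to 355 on Day14. Des, the muscle filament desmin, which skeletal muscle also makes, held 64.5 to 77.0% of the smooth muscle sum on Day0 and 55.0 to 60.5% on Day7. Without Des the other 7 genes summed to 111 to 174 FPKM on Day0, 56.1 to 63.7 on Day7, 86.6 to 89.5 on Day10 and 74.1 to 90.7 on Day14. Smtn of this list had 0.08 on Day7 (edgeR adjusted p = 0.26) and was called higher by 0.89 on Day14 (adjusted p = 2.6e-13). From Day7 on, the smooth muscle sum of every library, with or without Des, was below that of the lowest Day0 library. The contractile sums of Day7, Day10 and Day12 lay within the Day0 range for that list, and those of Day14 lay above it. Acta2 and Tagln make up most of the contractile sum, while Cnn1 was lower than on Day0 on each wound day. The sum of 8 pericyte genes was 191 to 265 FPKM on Day0, 208 to 216 on Day7 and 157 to 172 on Day14. For 8 skeletal muscle genes, all 8 were lower than on Day0 on each of the 6 days, when 24.8% to 34.8% of all genes were, with sums of 10162 to 16651 FPKM on Day0, 2230 to 2896 on Day3 and 4993 to 6099 on Day10. Among the wound days, Day10 had the highest mean Cnn1 and the highest sums of skeletal muscle, pericyte and, with Des, smooth muscle genes. In none of these lists was a gene at 0. The part of these cells in the levels of Acta2, Tagln and Cnn1 was not tested.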

How the data were processed

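RNA-seq libraries of skin at the wound site were analysed, 28 in all, grouped by day from the sample titles. The authors deposited raw read counts per gene symbol, with no normalization, and FPKM values computed from the same counts and 1 length per gene. The processing notes of the submitters name fastp, R 3.2.0 and the genome build mm10. The study's methods name TRIzol, the VAHTS Universal V6 kit and DESeq2. The aligner, the counting tool, its annotation and its use of strand are not given in the sources used here.

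Counts were fitted in R 4.3.3 with edgeR 4.0.16 (TMM, filterByExpr, quasi-likelihood test, two-sided), all 28 libraries together, 7 day groups, no covariates and 21 residual degrees of freedom. Benjamini-Hochberg adjustment covered the 18107 genes kept. The fit shares 1 dispersion per gene over days, so the SE does not carry the larger spread of Day0. Libraries of 1 day differed by more than counting noise, with a median chi-square per gene of at least 1.48 against 0.455. log2 CPM used a prior count of 2. The alternatives were DESeq2 1.42.0, its size factors, other count filters, limma 3.58.1 on log2(FPKM + 1) or log2(FPKM + 0.1), the 8 libraries alone, the replicate number as a block, the study's criteria and each library left out. The tools were tested on simulated data. Named were all 8 members, the 3 genes most like each, and per list at most 4 genes, the 2 highest and 2 lowest on Day7. The members, lists and tests were chosen with earlier results of these data known. Loci came from GENCODE M21 on GRCm38 (mm10) and promoter windows from RefSeq on GRCm38.p6.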

Additional observations from a re-analysis of the deposited data

Results flagged for a closer look

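In 7 of 56 groups of 4 libraries, 8 members on 7 days, 1 library lay far from the other 3 by Dixon's criterion on log2 CPM, where chance alone gives about 2.8 (1 in 20). For Acta2, Day14 replicate 3 was at 8.93, with the others between 8.67 and 8.71. For Tagln, Day3 replicate 2 was at 5.93, with the others between 6.08 and 6.11, and Day5 replicate 4 was at 6.71, with the others between 6.40 and 6.42. For Cthrc1, Day5 replicate 4 was at 7.61, with the others between 7.34 and 7.36, and for Adam12 the same library was at 7.18, with the others between 7.59 and 7.66. For Lrrc15, Day7 replicate 4 was at 8.75, with the others at 8.91. For Fap, Day14 replicate 3 was at 4.19, with the others between 4.45 and 4.50. Day5 replicate 4 thus appeared for 3 members, higher for Tagln and Cthrc1 and lower for Adam12, and Day14 replicate 3 for Acta2, where it was higher, and Fap, where it was lower.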

How the results depend on the processing

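Of the values of single members and relations under the alternatives other than the study's criteria, which gave counts only, 1409 kept their direction and their side of the threshold, 49 lost the call, 37 gained one and 29 changed sign. A change of sign was counted only as such, also where a call was lost or gained with it. Of the lost calls, 35 were in comparisons between wound days, 12 in those with Day0 and 2 in relations within days. Comparisons with Day0 held 30 of the gained calls and 20 of the changes of sign. All 8 members differed over the wound days under each alternative run, in a joint test that 85.1% of all genes passed in the main fit. Members called higher on Day3 were 2 rather than 1 with DESeq2's size factors, 2 with DESeq2 and 2 with the replicate number as a block, the added one being Postn (adjusted p = 0.040, 0.029 and 0.028), when 32.7%, 32.9% and 31.9% of all genes were higher in those fits. The replicate numbers do not pair the libraries, since correlations of same-numbered libraries' deviations ran from -0.076 to 0.18, and the block otherwise ended only the call of Adam12 from Day5 to Day7 (adjusted p = 0.052). By the study's criteria, members called lower were 1 on Day3, 1 on Day5 and 0 on Day7, 0 on Day10, 0 on Day12 and 0 on Day14, and 3 were higher on Day14. By the same criteria 3 rose from Day3 to Day5 (2.23% of all genes), 1 from Day5 to Day7 (2.5%) and 0 from Day7 to Day10 (1.39%), 1 fell from Day10 to Day12 (2.54%), and 0 rose and 0 fell from Day12 to Day14 (0.79% and 2.78%). On the 8 libraries alone, 4 rose and 1 fell from Day7 to Day10, and 1 rose from Day10 to Day12, Tagln with 0.25 (edgeR adjusted p = 1.8e-05), when 27.2% of all genes rose in that fit, while all 8 rose from Day5 to Day7. With limma, Tagln on Day7 was 0.026 on log2(FPKM + 1) and 0.027 on log2(FPKM + 0.1), neither called. On log2(FPKM + 1) limma called Tagln on Day12 (0.45) and Acta2 (0.32) and Cthrc1 (0.66) on Day14, and lost Acta2 from Day10 to Day12 (-0.22, adjusted p = 0.15), while Adam12 gained one from Day7 to Day10 (0.36, adjusted p = 0.028). On log2(FPKM + 0.1) Fap from Day12 to Day14 was lost (adjusted p = 0.054).

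Leaving out pairs of Day0 libraries was chosen after seeing the data. Without replicates 1 and 4, 2 members were higher on Day3, 7 on Day7, 7 on Day10, 7 on Day12 and 6 on Day14, when 31.5%, 25.6%, 24.6%, 22.8% and 28.9% of all genes were, and 0 were lower on Day10 and 2 on Day14 (24.8% and 32.7% of all genes). Cthrc1 was -0.46 on Day3 and -0.18 on Day14, Lrrc15 0.057 on Day3, Acta2 0.059 on Day5 and 0.21 on Day12, and Tagln 0.46 on Day7. Without replicates 2 and 3, 2 members were higher on Day3, 2 lower on Day7, 3 lower on Day10 and 2 lower on Day12 (32.1%, 24.6%, 24.9% and 22% of all genes). Acta2 was -0.24 on Day10 and -0.11 on Day14, and Tagln -0.36 on Day10 and -0.11 on Day12. With 1 library left out at a time, no count of members called moved by more than 1. Those higher on Day3 ranged from 1 to 2 (30.6 to 34.2% of all genes), lower on Day12 from 1 to 2 (22.8 to 24.1%), and higher from Day12 to Day14 from 1 to 2 (17.4 to 18.9%). On Day10, Day12 and Day14 those higher ranged from 5 to 6 (21.5 to 23.6%, 19.6 to 22.8% and 26.4 to 32.7% of all genes). Cthrc1 ranged from -0.15 to 0.33 on Day3, Tagln from -0.18 to 0.13 on Day7 and from -0.13 to 0.18 on Day10, and Acta2 from -0.030 to 0.28 on Day10. Cnn1 ranged from -0.084 to 0.14 from Day3 to Day5 and from -0.16 to 0.027 from Day12 to Day14, and Fap from -0.0055 to 0.058 from Day10 to Day12, none of which was called. Over the wound days only, 2 relations within days passed rather than 4, and the r of Acta2 was -0.48 with Postn, 0.33 with Cthrc1, -0.073 with Lrrc15 and -0.23 with Adam12. The cause of these shifts was not tested beyond the libraries left out. With 4 libraries a day, exact tests of a single gene cannot go below p = 0.0286, and counting error is small for these genes, whose lowest count in a library was 175.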

Other observations

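Markers of cells that share the wound with the myofibroblasts are given beside the shares of all genes called by edgeR, higher and lower, which were 31.8% and 34.8% on Day3, 29% and 30.6% on Day5, 25.6% and 24.8% on Day7 and 28.2% and 34.5% on Day14. All 8 macrophage genes were called higher than on Day0 by edgeR on Day3 and Day5, and all 8 lower on Day14. Cd14, the endotoxin co-receptor, and Cd68, a lysosomal protein, were higher by 2.30 and 0.98 on Day7, while C1qa and Mrc1 had 0.27 each (edgeR adjusted p = 1.2e-16, 1.8e-08, 0.0060 and 0.15). Of 6 endothelial genes 5 were higher on Day3, Day5 and Day7, and 3 were lower on Day14. Of 8 genes of resting skin fibroblasts, 8 were lower on Day3 and 7 on Day14, and on Day7 Mfap5 and Lum were higher by 1.04 and 0.75 and Clec3b lower with -0.77 (edgeR adjusted p = 5.5e-08, 0.0070 and 0.0029). The summed level of this list was 1621 to 1939 FPKM on Day3, within the Day0 range of 1468 to 4830 FPKM, and 1223 to 1366 FPKM on Day14, below that range. Of 6 keratinocyte genes 3 were higher and 2 lower on Day7, among them the wound-edge keratins Krt16 and Krt6a by 3.79 and 2.44 (edgeR adjusted p = 1.6e-10 and 4.0e-07) and Krt5 of basal cells with -0.98 (adjusted p = 1.5e-05). Of 8 pericyte genes 3 were higher and 2 lower on Day7, near the shares of all genes, Rgs5 by 0.92 and Ndufa4l2 with -0.98 (edgeR adjusted p = 3.1e-13 and 3.0e-05). These lists share the Day0 libraries with the members' comparisons, and their relation to the members was not tested.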
